A study of Mus musculus with 6 samples.

Results

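Transcripts of 57 genes of DNA replication and S phase were examined in cultured mouse ureters exposed to lithium chloride. The genes were chosen by function, as factors of origin licensing, the replication fork, deoxynucleotide synthesis and the G1/S transition, and were kept if they had 10 or more reads in at least 3 of the 6 samples. All 57 passed, with the lowest count of any of them in any sample at 165 (*Fen1*, in control replicates 1 and 2), and all 57 were among the 18188 genes tested of 56748 in the table. Wildtype NMRI embryos at E12.5 provided the ureters, which grew as explants on transwell membranes for 18 h in DMEM/F12-based medium. The control group (n = 3) received water, and the LiCl group (n = 3) received 15 mM LiCl, an inhibitor of the kinase GSK3B that is used to activate canonical WNT signaling. No other salt was among the treatments. Each sample held whole ureters, with epithelium and mesenchyme together, and how many ureters or embryos entered a sample was not given in the sources used here, so that p-values measure the spread between these samples, which may be technical.

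Replication starts from origins that are prepared in G1. The origin recognition complex marks the site, and CDC6 and CDT1 load the ring-shaped MCM2-7 helicase onto it, a step that geminin blocks once S phase has begun. At the start of S phase the kinase CDC7 with its activator DBF4 and the cyclin-dependent kinases convert the loaded ring into an active helicase with CDC45 and GINS, and DNA polymerases, the clamp PCNA and its loader RFC then copy the strands. Many of the genes are transcribed in late G1 under E2F factors, and in the growing ureter their transcripts mark dividing epithelial and mesenchymal progenitors.

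The total count was 28473436 to 31266945 reads per sample. The ureter's own markers were present in every sample: none of the 12 epithelial and 12 mesenchymal markers was at 0. They were not at the same level in both groups. Of the epithelial markers 10 of 12 passed the test as lower with LiCl and 1 as higher, and their summed CPM (counts scaled to library size with TMM factors) was 1001 to 1307 in the controls and 729 to 768 with LiCl. Of the mesenchymal markers 8 of 12 were lower and 1 was higher, with summed CPM of 5470 to 5982 and 4392 to 4852. LiCl replicates 1 and 3 stood apart by skeletal muscle transcripts, with summed CPM over 8 markers of 31.2 and 64.6. LiCl replicate 2 had 5.37 and the controls had 5.04 to 6.38, and in the controls up to 2 of the 8 were at 0. Summed CPM of the other lists was 515 to 652 in controls and 468 to 579 with LiCl for endothelium, 73.5 to 121 and 63.8 to 87.7 for macrophages, 477 to 690 and 624 to 956 for erythroid genes, 186 to 220 and 136 to 192 for neural genes, and 111 to 125 and 108 to 115 for kidney genes. Control replicate 1 had the lowest level of 4 Y-linked genes, with summed CPM of 109 against 180.3 to 247 in the other samples. With this level as a covariate 40 of the 57 genes rose, 2 fell and the median was 0.45. How many of all genes tested rose or fell in that fit was not counted. The part of any of these differences in the results below was not tested, and the median without LiCl replicates 1 and 3 is given beside the main one.

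Most of the replication genes were higher with LiCl, by moderate amounts. Of the 57 genes, 42 (73.7%) rose at an adjusted p under 0.05 (edgeR quasi-likelihood test, Benjamini-Hochberg over all 18188 genes), 2 fell and 13 did not pass the test. Among all genes tested, 21.1% rose and 22.4% fell. The median log2 fold change of the 57 was 0.44 against -0.01 over all genes, with the middle part of the distribution (25th to 75th percentile) between 0.19 and 0.72 and the range from -0.45 (*Ccne2*) to 1.399 (*E2f1*). Since whole explants were measured, more replicating cells and more RNA per cell cannot be told apart.

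In each sample, the median over the 57 genes of log2 CPM relative to the control mean was -0.03, 0.03 and 0.00 for the controls (replicates 1 to 3) and 0.43, 0.36 and 0.45 for the LiCl samples in the same order. The groups did not overlap, and LiCl replicate 2, the one without the skeletal muscle transcripts, was the lowest of the LiCl samples. For single genes, every LiCl sample lay above every control in 46 of 57 (80.7%), against 26.4% of all genes tested, and below every control in 2, against 27.8%. With LiCl replicate 2 as the only LiCl sample, the median log2 fold change of the 57 genes was 0.37. Genes passing the test are not counted for that fit, because it has a single LiCl sample. Summed over the 57 genes, the share of all counts was 0.329% to 0.344% in the controls and 0.436% to 0.459% with LiCl.

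**Figure D1:**
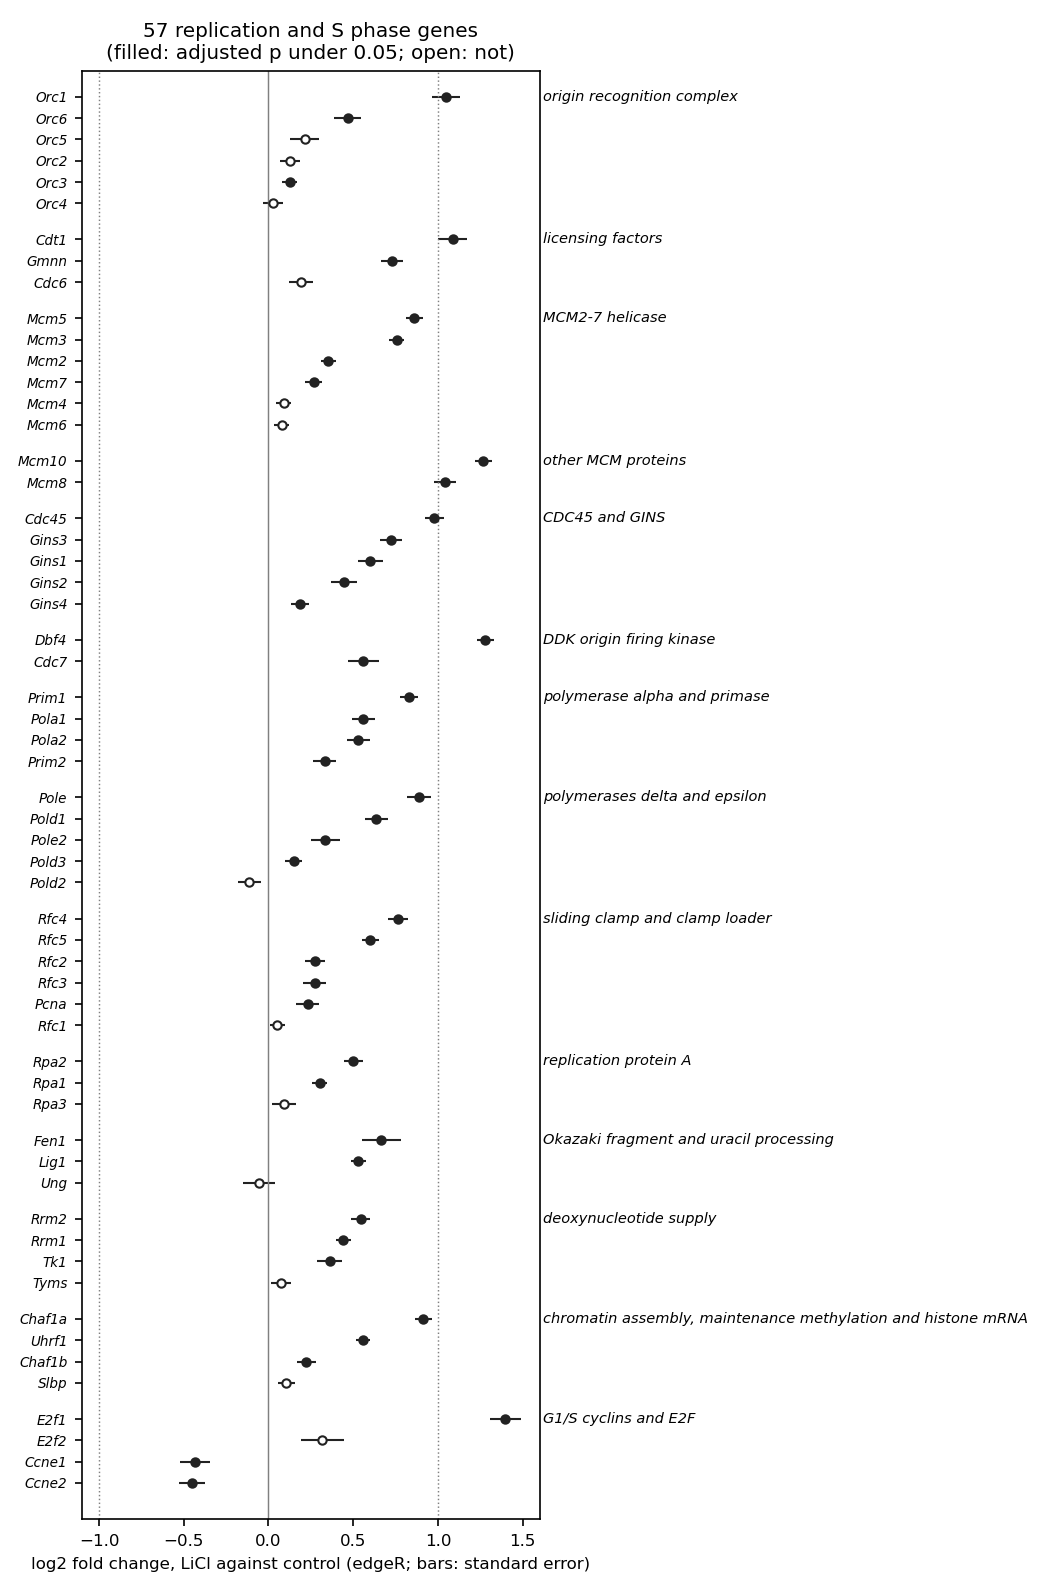
Log2 fold change (LiCl minus control, n = 3 each) of each of the 57 replication genes on the horizontal axis, grouped by role on the vertical axis, with standard errors as bars, filled points where the adjusted p was under 0.05 and open points otherwise. The points run from -0.45 for *Ccne2* to 1.399 for *E2f1*, and 53 of 57 lie above 0.

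At the thresholds used in the study, which ask for a change of more than 1 on the log2 scale in addition to an adjusted p under 0.05, 6 of the 57 genes (10.5%) were higher and none was lower, against 2.74% and 4.59% of all genes tested. In order of fold change these 6 were *E2f1*, *Dbf4*, *Mcm10*, *Cdt1*, *Orc1* and *Mcm8*: a transcription factor of the G1/S transition and 5 genes of origin licensing, firing and repair-linked helicases. *Cdt1* was at the border: without control replicate 1 its log2 fold change was 0.9985 and it was no longer counted. *Cdc45* lay just under the border at 0.98.

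**Figure D2:**
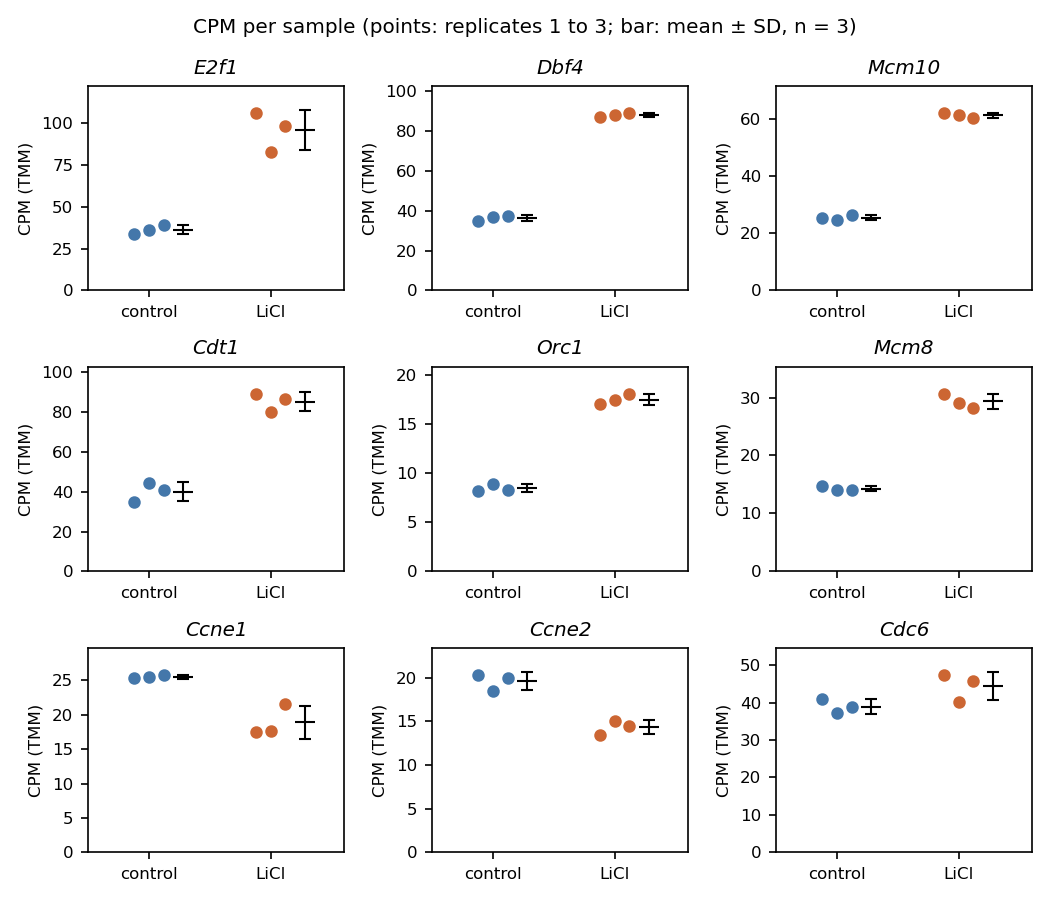
CPM (scaled by TMM, linear axes from 0) of 9 replication genes in each sample, with points for replicates 1 to 3 and bars for mean ± SD (n = 3). The first 6 panels are the genes past a log2 fold change of 1 and show no overlap between groups, *Ccne1* and *Ccne2* are lower in every LiCl sample, and the groups of *Cdc6* overlap.

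The subunits of the origin recognition complex differed in their response. *Orc1*, the subunit whose protein level is known to cycle, had CPM of 8.17, 8.92 and 8.29 in the controls and 17.0, 17.4 and 18.1 with LiCl, a log2 fold change of 1.05 ± 0.08 (SE; adjusted p = 1.7e-05). The LiCl samples lay close together, at 2.07-fold the controls. *Orc6*, a small subunit needed for MCM loading, rose by 0.47, from 39.0, 46.6 and 40.8 to 62.7, 54.2 and 58.1 CPM. The core subunits *Orc2*, *Orc3*, *Orc4* and *Orc5* had log2 fold changes between 0.03 and 0.21. Of these only *Orc3* passed the test, with an adjusted p of 0.048, and it did so under 5 of 17 alternative settings.

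The licensing factors were also uneven. CPM of *Cdt1*, the MCM loader that is destroyed in S phase, was 34.9, 44.5 and 40.8 in the controls and 89.3, 80.1 and 86.4 with LiCl (log2 fold change 1.09 ± 0.09, adjusted p = 1.7e-05). *Gmnn*, which encodes its inhibitor geminin, went from 14.6, 15.7 and 15.1 to 25.8, 24.4 and 24.9 CPM (0.73 ± 0.07, adjusted p = 3.7e-05). *Cdc6*, the other loader, had 41.0, 37.1 and 38.7 CPM in the controls and 47.4, 40.2 and 45.8 with LiCl. Its groups overlapped, and its log2 fold change of 0.19 (95% confidence interval 0.03 to 0.36) did not pass (adjusted p = 0.056). The ratio of *Gmnn* to *Cdt1* CPM was 0.418, 0.352 and 0.370 in the controls and 0.290, 0.305 and 0.288 with LiCl, without overlap (exact permutation test, two-sided, p = 0.1, the smallest that 3 against 3 samples allow).

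The genes of the MCM2-7 ring separated into groups, although the proteins form one complex with a copy of each. *Mcm5* had 129, 140.1 and 135 CPM in the controls and 249, 236 and 249 with LiCl, a log2 fold change of 0.86 ± 0.05 (adjusted p = 2.4e-06). *Mcm3* rose by 0.76 ± 0.05, from 111, 118 and 117 to 193, 191 and 199 CPM. Smaller rises were seen for *Mcm2* (0.35, adjusted p = 0.00029) and *Mcm7* (0.27, adjusted p = 0.0024).

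*Mcm6* and *Mcm4* did not pass. CPM of *Mcm6* was 176, 182 and 172 in the controls and 184, 184 and 192 with LiCl, so that the groups did not overlap but lay within a log2 fold change of 0.08 (95% confidence interval -0.02 to 0.18, adjusted p = 0.19). *Mcm4* had 0.09 (-0.01 to 0.19, adjusted p = 0.13). Both intervals exclude the log2 fold changes of *Mcm3* and *Mcm5*.

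**Figure D3:**
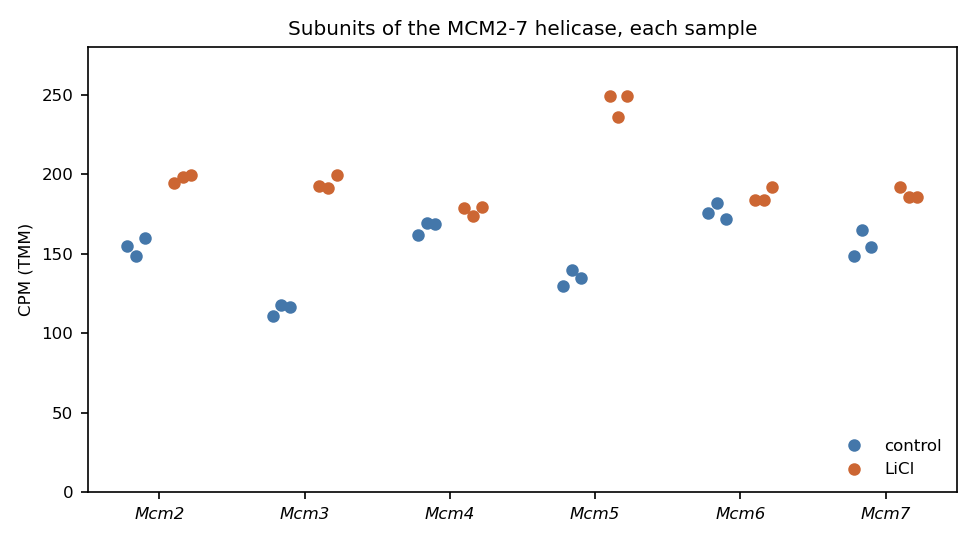
CPM (scaled by TMM) of the MCM2-7 subunit genes on the vertical axis, with a point for each control and LiCl sample. *Mcm5* moves from 129 to 140.1 in the controls to 236 to 249 with LiCl, while *Mcm6* moves from 172 to 182 to 184 to 192.

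The order of the subunits changed with it. On the FPKM scale, which divides by gene length, *Mcm4* (46.0), *Mcm6* (37.5), *Mcm7* (34.9), *Mcm5* (33.4), *Mcm3* (30.4) and *Mcm2* (22.0) followed each other in the controls as group means. With LiCl the order was *Mcm5* (61.3), *Mcm3* (51.9), *Mcm4* (49.5), *Mcm7* (42.5), *Mcm6* (40.03) and *Mcm2* (28.4). Neighbours in this order overlapped between samples only for *Mcm6* with *Mcm7* and *Mcm7* with *Mcm5* in the controls. *Mcm2* was low in both, and the length that the FPKM values imply for it, 6956 bases, is above the 3589 to 4666 of the other subunits. The ratio of *Mcm6* to *Mcm5* CPM was 1.36, 1.30 and 1.28 in the controls and 0.739, 0.780 and 0.769 with LiCl. Of the 15 ratios between subunits, 13 did not overlap between groups (exact permutation test, two-sided, p = 0.1 each and 0.115 adjusted over the 15). These ratios were chosen after the values had been seen and share subunits. How often ratios of other gene pairs fail to overlap was not counted. Of all single genes tested, every LiCl sample lay above every control in 26.4% and below in 27.8%, so a lack of overlap is common here.

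The promoters of *Mcm5* and *Mcm6*, the most and the least responsive of the ring, are shown because both hold E2F letters. E2F sites were searched as TTTCCCGC, TTTCGCGC, TTTGCCGC and TTTGGCGC on both strands, in the 250 bases before the RefSeq start (GRCm38.p6). The lines below run 5′ to 3′ on the gene's strand, at chr8:75109259-75109508 (plus strand) for *Mcm5* and chr1:128359706-128359955 (minus strand) for *Mcm6*. Capitals mark E2F letters and CCAAT boxes (CCAAT or its complement).
Mcm5: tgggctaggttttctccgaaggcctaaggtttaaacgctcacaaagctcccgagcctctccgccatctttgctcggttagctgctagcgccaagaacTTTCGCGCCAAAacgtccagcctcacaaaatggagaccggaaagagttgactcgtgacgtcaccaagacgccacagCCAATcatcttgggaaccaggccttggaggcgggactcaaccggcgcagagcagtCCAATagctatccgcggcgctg
Mcm6: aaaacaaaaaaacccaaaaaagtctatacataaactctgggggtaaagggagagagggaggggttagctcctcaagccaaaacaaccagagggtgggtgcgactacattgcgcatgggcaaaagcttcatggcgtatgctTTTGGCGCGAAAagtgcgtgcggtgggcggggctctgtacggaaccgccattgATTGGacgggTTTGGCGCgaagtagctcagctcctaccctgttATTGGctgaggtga
The run TTTCGCGCCAAA of *Mcm5*, whose first base is 153 bases before the start, is the reverse complement of the run TTTGGCGCGAAA of *Mcm6*, which starts 110 bases before the start. Each run is a pair of overlapping E2F matches on opposite strands. The run was held on either strand by 4 of 27025 genes in the promoter table (0.0148%), *Mcm5* and *Mcm6* included. Because the search string was taken from these 2 promoters, both are among the hits by construction. *Mcm6* had one further E2F match, 47 bases before its start. The shared run was noticed after the fold changes of both genes had been seen.

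Over all replication genes with an entry in the promoter table (48 of 57), 10 (20.8%) held E2F letters, against 583 of 27025 genes (2.16%). The 10 were *Orc1*, *Mcm5*, *Gins3*, *Pola1*, *Uhrf1*, *Rfc3*, *Mcm7*, *Cdc6*, *Orc3* and *Mcm6*. Their median log2 fold change was 0.42 (range 0.08 to 1.05), and that of the 38 without the letters was 0.45 (-0.43 to 1.399). CCAAT boxes were in 58.3% of the 48 and in 37.5% of all genes, and the cell cycle homology letters TTTGAA, known from promoters of mitotic genes, were in 14.6% and 18.3%. The matches are descriptions of letters in these windows, and in 15 of the 48 more than 50% of the window lay in exons annotated in GENCODE vM21.

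The genes that turn the loaded ring into a moving helicase rose in each case, and so did *Mcm8*, which is not one of them. *Mcm10*, which is needed to separate and activate the helicases at an origin, had 25.3, 24.8 and 26.4 CPM in the controls and 62.3, 61.4 and 60.5 with LiCl (log2 fold change 1.27 ± 0.05, adjusted p = 4e-07). *Mcm8*, part of a separate helicase that acts in homologous recombination, went from 14.7, 14.0 and 14.1 to 30.7, 29.1 and 28.2 CPM (1.04 ± 0.06, adjusted p = 4e-06). *Cdc45*, the helicase cofactor, went from 21.6, 22.0 and 21.9 to 42.3, 42.1 and 44.8 CPM (0.98 ± 0.05, adjusted p = 2.1e-06). In all 3 genes the spread within a group was small beside the difference. The 4 GINS subunits all rose, by 0.72 (*Gins3*), 0.60 (*Gins1*), 0.45 (*Gins2*) and 0.19 (*Gins4*) on the log2 scale. *Gins4* kept its call under 13 of 17 alternatives.

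Both parts of the origin-firing kinase rose, and the activator rose more than the kinase. CPM of *Dbf4* was 34.7, 37.0 and 37.2 in the controls and 87.1, 88.1 and 89.3 with LiCl (log2 fold change 1.28 ± 0.05, adjusted p = 3.6e-07). *Cdc7* had 39.5, 40.6 and 40.6 CPM in the controls and a wider spread of 68.0, 50.7 and 59.1 with LiCl (0.56 ± 0.09, adjusted p = 0.0013). The ratio of *Dbf4* to *Cdc7* was 0.878, 0.914 and 0.916 in the controls and 1.28, 1.74 and 1.51 with LiCl (exact permutation test, two-sided, p = 0.1). It too was 1 of the 4 ratios picked with earlier results known.

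DNA polymerase alpha, which makes the primers, rose as a whole. Its primase gene *Prim1* had 33.5, 36.2 and 34.5 CPM in the controls and 64.0, 59.7 and 61.7 with LiCl (log2 fold change 0.83 ± 0.05, adjusted p = 5.3e-06). *Pola1* and *Pola2*, the catalytic and accessory subunits, rose by 0.56 and 0.53, and *Prim2* by 0.33.

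In the polymerases that copy the strands, the catalytic subunits had the largest fold changes. *Pole*, the leading-strand polymerase, had 61.4, 52.7 and 64.2 CPM in the controls and 108, 112 and 110.1 with LiCl (log2 fold change 0.89 ± 0.07, adjusted p = 1.8e-05). *Pold1*, the catalytic subunit of the lagging-strand polymerase, rose by 0.64, from 60.2, 65.9 and 61.3 to 104, 89.3 and 97.7 CPM. Their accessory subunits among the 57 genes had 0.34 (*Pole2*), 0.15 (*Pold3*, adjusted p = 0.04) and -0.11 (*Pold2*, adjusted p = 0.23). Accessory subunits outside the 57 had log2 fold changes from -0.77 to 0.54, the highest of them close to *Pold1*. *Pold3* kept its call under 6 of 17 alternatives.

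Of the 6 genes of the clamp and its loader, 5 rose. *Rfc4* rose by 0.76, from 19.8, 21.8 and 20.8 to 35.6, 35.0 and 35.4 CPM, and *Rfc5* by 0.60, while *Rfc2* and *Rfc3* each rose by 0.27. *Rfc1*, the large subunit, had 0.05 (95% confidence interval -0.05 to 0.16, adjusted p = 0.39). *Pcna*, the sliding clamp and a common marker of proliferating cells, had 70.6, 67.5 and 65.8 CPM in the controls and 87.6, 73.6 and 78.4 with LiCl. Its log2 fold change was only 0.23 ± 0.07 (adjusted p = 0.021), and the call held under 13 of 17 alternatives. Reads of *Pcna* can be shared with its processed copy *Pcna-ps2*, with 469, 784 and 715 control counts against 739, 707 and 975 for LiCl, and the log2 ratio of the summed CPM of both was 0.27. Of the single-strand binding protein RPA, *Rpa2* (0.50) and *Rpa1* (0.30) rose and *Rpa3* (0.09, adjusted p = 0.33) did not pass.

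Genes of Okazaki fragment joining rose. *Lig1*, the ligase, went from 109.7, 116 and 116 to 166, 160.2 and 166 CPM (log2 fold change 0.53 ± 0.05, adjusted p = 2.8e-05). *Fen1*, the flap nuclease, had the lowest counts of the 57, with 165, 165 and 166 reads among the controls against 239, 254 and 264 among the LiCl samples (0.67 ± 0.12, adjusted p = 0.0016). Most of *Fen1* is overlapped by an antisense gene, Gm10143, with 24 to 45 counts a sample. The other antisense neighbour, *Tmem258*, overlaps the first exon of *Fen1* and had 885 to 1087 counts a sample, and whether counting used strand was not given in the sources used here. *Ung*, which removes uracil from DNA, had -0.06 (adjusted p = 0.66).

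Of the 4 genes of deoxynucleotide supply, 3 rose and *Tyms* did not pass the test. Ribonucleotide reductase makes deoxynucleotides, and its subunit genes *Rrm2* and *Rrm1* rose by 0.54 and 0.44, *Rrm2* from 62.2, 63.7 and 61.6 to 94.99, 85.1 and 93.3 CPM. *Tk1*, the thymidine kinase of S phase, rose by 0.36 (adjusted p = 0.0041). *Tyms*, which makes thymidylate, had 42.6, 38.7 and 41.1 CPM in the controls and 40.7, 44.3 and 43.6 with LiCl, with overlapping groups and a log2 fold change of 0.07 (95% confidence interval -0.06 to 0.21, adjusted p = 0.36).

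Among the chromatin genes, the 2 subunits of the histone chaperone CAF-1 that are in the set differed. *Chaf1a*, its large subunit, went from 76.8, 79.0 and 83.3 to 150.4, 148 and 153 CPM (log2 fold change 0.91 ± 0.05, adjusted p = 1.6e-06), and *Chaf1b* rose by 0.22. *Uhrf1*, which carries DNA methylation over to the new strand, rose by 0.56, from 160, 157 and 162 to 230, 235 and 239 CPM. *Slbp*, which processes histone mRNA, had 0.11 (adjusted p = 0.13). *Chaf1a* and *Gins2* overlap genes on the other strand, *Ubxn6* (log2 fold change -0.40, adjusted p = 0.011) and *Gse1* (-0.06, adjusted p = 0.67).

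The G1/S regulators moved apart. *E2f1*, the activating E2F factor, had 34.0, 35.9 and 39.1 CPM in the controls and 106, 82.7 and 98.3 with LiCl, the highest log2 fold change of the 57 genes (1.399 ± 0.09, adjusted p = 6.1e-06). *E2f2*, another activating factor, had 13.1, 9.47 and 10.4 CPM in the controls and 12.8, 14.5 and 13.8 with LiCl, with overlap (0.32, adjusted p = 0.066). The cyclins E, which are E2F targets that drive entry into S phase with CDK2, were the only genes that fell. *Ccne1* had 25.4, 25.4 and 25.8 CPM in the controls and 17.4, 17.7 and 21.6 with LiCl (-0.43 ± 0.09, adjusted p = 0.0035). *Ccne2* had 20.3, 18.4 and 19.97 CPM in the controls and 13.5, 15.0 and 14.5 with LiCl (-0.45 ± 0.08, adjusted p = 0.0015). Both were lower in every LiCl sample than in every control, and both kept the direction in LiCl replicate 2 alone. The ratio of *Ccne1* to *E2f1* CPM was 0.746, 0.709 and 0.662 in the controls and 0.164, 0.214 and 0.220 with LiCl. With *Ccne1* lower and *E2f1* higher in every LiCl sample, this ratio could not overlap between groups. Its p of 0.1 (exact permutation test, two-sided) was thereby fixed and adds nothing to the single genes.

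The bases before the starts of *Dbf4* and *Ccne1* are shown as promoters of a gene with a large rise and of one that fell. The line of *Dbf4* covers chr5:8422717-8422849 (minus strand), the 133 bases before the RefSeq start that hold no annotated exon, and that of *Ccne1* covers chr7:38107535-38107740 (minus strand), from 250 to 45 bases before the start. Neither holds the E2F letters, TTTGAA or CCAAT on either strand, so no capitals are printed.
Dbf4: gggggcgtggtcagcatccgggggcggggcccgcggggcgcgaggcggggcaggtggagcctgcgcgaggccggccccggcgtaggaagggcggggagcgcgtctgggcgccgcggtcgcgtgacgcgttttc
Ccne1: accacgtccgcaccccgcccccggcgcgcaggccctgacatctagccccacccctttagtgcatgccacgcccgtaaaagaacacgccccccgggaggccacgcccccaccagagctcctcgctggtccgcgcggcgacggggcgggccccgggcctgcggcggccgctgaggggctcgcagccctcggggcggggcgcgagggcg
No match says only that these letters are not in this window.

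Other genes of replication, outside the 57, moved in the same direction with a smaller median. Of 62 such genes, 39 rose (62.9%), 6 fell (9.68%) and the median log2 fold change was 0.27. The count of falls was 2 without LiCl replicate 3. The largest rises were those of *Recql4* (1.26), a helicase of replication and repair, *Ticrr* (1.23), which brings CDC45 to origins, *Shmt1* (1.04), a folate enzyme that feeds thymidylate synthesis, and *Ccna2* (1.00), the cyclin of S phase and G2. The largest falls were those of *Pold4* (-0.77), the smallest polymerase delta subunit, *Rrm2b* (-0.49), the p53-dependent reductase subunit, the pocket protein gene *Rbl2* (-0.32) and *Rnaseh2c* (-0.26).

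Mitotic genes had larger fold changes than the replication genes. All 44 on the list rose, 39 of them past a log2 fold change of 1, with a median of 1.33 against 0.44 for the 57. They ranged from 0.40 (*Mybl2*) to 1.75 (*Ube2c*), followed by *Aurka* (1.73), *Ccnb1* (1.71) and *Cenpa* (1.65). Only *E2f1* of the 57 replication genes was above the mitotic median. Of the 37 mitotic genes with a promoter entry, 1 (2.7%) held E2F letters, against 2.16% of all genes in the promoter table. TTTGAA was in 32.4% of the 37 against 18.3% of all genes, and CCAAT boxes in 73.0% against 37.5%.

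**Figure D4:**
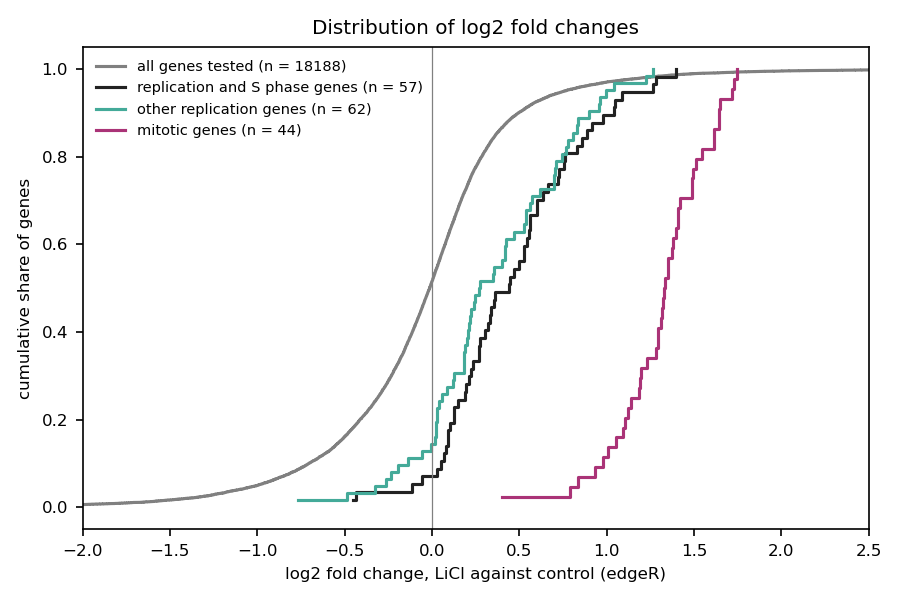
Cumulative share of genes (vertical axis) by log2 fold change, LiCl minus control (horizontal axis), for all 18188 genes tested, the 57 replication genes, the 62 other replication genes and the 44 mitotic genes. The curve of the replication genes (median 0.44) lies between that of all genes (-0.01) and that of the mitotic genes (1.33).

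The regulators of G1 had no common direction. Of 11 tested genes, the inhibitors *Cdkn1a* (1.31) and *Cdkn1b* (0.59) and the kinase *Cdk4* (0.19) rose. *Ccnd1* (-0.34), *Cdk6* (-0.34), *Ccnd3* (-0.28) and the inhibitor *Cdkn1c* (-0.26) fell. Of the 11, 27.3% rose and 36.4% fell, against 21.1% and 22.4% of all genes tested. *Ccnd2* (-0.13), *Cdkn2c* (-0.27), *Cdkn2b* (0.09) and *Cdkn2d* (0.15) did not pass, and the median was -0.13. *Cdkn2a* was too low to be tested.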

How the data were processed

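Poly-A RNA of 6 ureter cultures (3 control, 3 LiCl) was sequenced as stranded libraries. The deposited raw counts are whole reads per gene made by the authors, with GRCm39 named as the genome. The methods name HISAT2 as aligner, whereas the submitters' processing notes list fastp 0.23, STAR 2.7, featureCounts 2.0 and DESeq2 1.40. The annotation release and the strand setting were not given in the sources used here. The deposited FPKM values equal the counts divided by size factors and by gene length, and were used for levels between genes and as an alternative. For 56 of the 57 genes the implied length was within 1 base of the merged exons of GENCODE vM21, an annotation on GRCm38. Which build underlies the counts was not tested.

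Counts were tested with edgeR 4.0.16 (filterByExpr, TMM scaling, quasi-likelihood F test, Benjamini-Hochberg) in R 4.3.3 with all 6 samples and no covariate. A gene passed at an adjusted p under 0.05. Calls at the study's thresholds also needed a log2 fold change above 1 or below -1. CPM are TMM-scaled. Intervals are 95% and cover the spread between samples. Alternatives used other scalings and filters, DESeq2 1.42.0, limma 3.58.1 on log2(FPKM + 1) and log2(FPKM + 0.1), a replicate block, a covariate of Y-linked expression, and each sample left out. The fit was tested on simulated data. The 57 genes, the other gene lists and the tests were chosen with earlier results of these data known. Any of the 57 genes could be named, and from the other lists up to 4 rises and 4 falls and all G1 regulators. Promoters were RefSeq sequences on GRCm38.p6, another build than the one named for the counts, so no coordinates were joined. By rule, promoters of the genes with the largest and the smallest fold changes that passed were to be printed. Those of *E2f1* and *Orc3* lie in annotated exons and are not printed, and *Mcm5* and *Mcm6* were added after their values were seen.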

Additional observations from a re-analysis of the deposited data

How the results depend on the processing

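There were 17 alternatives, 1 of them with LiCl replicate 2 as the only LiCl sample. In the others, 38 to 44 of the 57 genes rose and 2 fell in each. How many of all genes tested rose or fell in these fits was not counted. The median of the 57 was 0.39 to 0.44 with each sample left out, the lowest without LiCl replicate 3, and 0.37 with LiCl replicate 2 alone. Direction changed for *Orc4*, which was -0.0071 with scaling by library size only and ranged from -0.0106 to 0.0615 with a sample left out, and for *Ung*, from -0.1251 to 0.0119 with a sample left out. Neither passed the test in the report, and the cause was not tested. The mitotic median was 1.31 to 1.37 with a sample left out, 1.43 with LiCl replicate 2 alone and 1.26 on log2(FPKM + 1), with or without the filter on low values. Of the other replication genes, 2 to 6 fell with a sample left out, where fewer samples leave less power. At the study's thresholds 4 to 7 of the 57 were higher, with 4 on log2(FPKM + 1), where the pseudocount shrinks *Orc1* (0.83) and *Mcm8* (0.89). The calls lost in more than 1 alternative were those of *Orc3*, *Pold3*, *Pcna*, *Gins4* and *Chaf1b*. *Cdc6*, *Orc5* and *E2f2*, which did not pass in the main fit, passed in some of the 17.

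Samples with the same replicate number showed no clear shared deviation (correlations 0.04, -0.08 and 0.10). With 3 samples a group, such values cannot exclude that the numbers pair the samples. With the replicate block 41 genes rose, 2 fell, 6 were higher at the study's thresholds, and the median was 0.44.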
